A study of Homo sapiens with 6 samples.

Results

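The miR-193 family and the clustered miR-365 were followed in small RNA libraries of extracellular vesicles (EVs). Members were found by name in a table of 471 miRNA rows. Of 5 names (hsa-miR-193b-5p, hsa-miR-193b-3p, hsa-miR-193a-5p, hsa-miR-193a-3p and hsa-miR-365a-3p, written below without the prefix for human), 4 had a row, and miR-193a-3p had none in the table used here. The family was selected on the read counts of miR-193b-5p in these libraries, which were known to differ between the groups, and the other members were added as its second arm, its paralog and its genomic neighbour. The row of miR-365a-3p also carried the name miR-365b-3p. EVs were collected on day 14 from the medium of Cal27 spheroids; Cal27 is an established line of human oral squamous cell carcinoma. Spheroids were grown on Matrigel at 3 mg/mL (soft ECM, EV_soft) or 12 mg/mL (stiff ECM, EV_stiff), with 3 libraries per group that the labels call biological replicates, and the comparison asked whether matrix stiffness altered the miRNA cargo of EVs. Both groups came from the same unmodified line, and the study describes Matrigel concentration as changing gel microarchitecture together with stiffness, so these cannot be told apart here.

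A miRNA hairpin is cut into a 5p arm and a 3p arm, and usually one of them, the guide, is loaded into Argonaute and pairs with target mRNAs through its seed, while the other is degraded. For miR-193a, miR-193b and miR-365 the 3p arm is the one usually described as the guide and as a growth-restraining miRNA in epithelial cancers. The family is encoded as a pair of clusters, each with 1 miR-193 and 1 miR-365 hairpin, and the miR-365 hairpins of both clusters give the same mature 3p sequence.

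The mature sequences were taken from RefSeq (GRCh38.p14), where all 5 names and the 3 remaining miR-365 products matched. They are shown because the 5p arms that held nearly all the reads differ in sequence and seed from the 3p arms, which had few reads or, for miR-193a-3p, no row. They are written 5′ to 3′, with the seed (bases 2 to 8) in capitals.
miR-193b-5p: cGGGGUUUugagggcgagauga
miR-193a-5p: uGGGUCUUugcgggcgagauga
miR-193b-3p: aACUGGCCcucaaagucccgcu
miR-193a-3p: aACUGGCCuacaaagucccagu
miR-365a-3p and miR-365b-3p: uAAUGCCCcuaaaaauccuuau
miR-365a-5p: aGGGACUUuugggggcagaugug
miR-365b-5p: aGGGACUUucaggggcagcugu

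The 3p arms of miR-193a and miR-193b shared the seed ACUGGCC and differed at 4 of 22 positions. Their 5p arms also differed at 4 of 22 positions, and these differences reached into the seed, which read GGGGUUU in miR-193b-5p and GGGUCUU in miR-193a-5p. The longest run common to both 5p arms was the 11 bases at the 3′ end, gggcgagauga. Among the rows with a RefSeq match, no other shared a seed with either 5p arm. The hairpins are shown with both arms in capitals, so that the counted arm can be read in its place.
MIR193B: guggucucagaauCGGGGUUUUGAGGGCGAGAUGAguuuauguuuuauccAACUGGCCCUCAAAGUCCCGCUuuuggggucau
MIR193A: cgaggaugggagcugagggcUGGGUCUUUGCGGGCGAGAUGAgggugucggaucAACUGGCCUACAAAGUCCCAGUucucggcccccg

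On GRCh38, MIR193B lies on the plus strand of chromosome 16 from 14303967 to 14304049, and MIR365A follows from 14309285 to 14309371, with 5235 bases between them. Both are in an intron of the lncRNA MIR193BHG (GENCODE 44). MIR193A lies on the plus strand of chromosome 17 from 31559996 to 31560083, outside any other gene annotated on its strand. MIR365B lies 15327 bases further on, from 31575411 to 31575521, and overlaps an exon of the lncRNA MIR365BHG. MIR4725 ends 52 bases before MIR365B and was taken as a further neighbour.

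The values are raw read counts of miRNAs deposited by the authors. The miRNA reads summed to between 39211 and 66345 in the EV_soft libraries and between 28688 and 30685 in the EV_stiff libraries, so every EV_soft library was deeper. A count of 0 allows up to 3 reads, or 44.2 to 107 CPM across the libraries, for counting error only. CPM are the reads of a miRNA per 1000000 miRNA reads, scaled between libraries by TMM, a method that assumes that most miRNAs do not change. All 7 epithelial markers fixed for this comparison (miR-205-5p, miR-203a-3p and members of the miR-200 family among them) were counted, and the values of the blood, stromal and muscle markers are given beside the result they touch.

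The family was represented by its 5p arms. Over the 6 libraries miR-193a-5p had 384 reads and miR-193b-5p had 325. The row of miR-193b-3p had 1, 0 and 1 reads in the EV_soft libraries and 2, 0 and 0 reads in the EV_stiff libraries. The arm of miR-193b usually named as the guide was thus under the limit of 3 reads in every library, in both groups. For miR-193a-3p there is no measured value, and a missing row does not tell whether this arm had no reads or was left out of the table. The 5p arm of miR-193b made up 137 of the 139 reads of both arms in EV_soft, or 98.6% (exact Clopper-Pearson 95% interval 94.9 to 99.8), and 188 of 190 in EV_stiff, or 98.9% (interval 96.2 to 99.9).

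**Figure D1:**
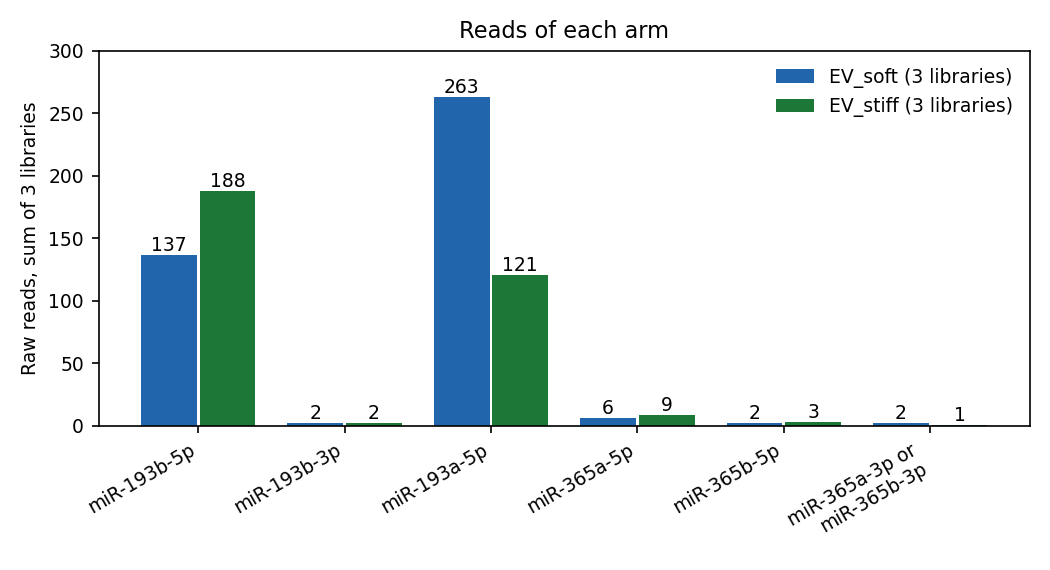
Raw reads of each arm (vertical axis, sum of the 3 libraries of a group) for the products of the miR-193 and miR-365 hairpins that had a row. Nearly all reads belong to miR-193b-5p (137 in EV_soft, 188 in EV_stiff) and miR-193a-5p (263 and 121), and no other bar exceeds 9 reads.

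The 5p to 3p ratio of miR-193b was 68.5 in the pooled EV_soft reads (95% interval 18.6 to 571) and 94 in the pooled EV_stiff reads (interval 25.7 to 782). The intervals overlap over most of their length. By library, the log2 ratio with 0.5 added to both counts was 4.98, 6.07 and 5.26 in EV_soft and 4.50, 6.99 and 7.12 in EV_stiff. EV_stiff replicate 1 was the lowest and the other two EV_stiff libraries were the highest, so the groups overlapped. The mean difference of 0.76 was smaller than the SD of 1.48 in EV_stiff (n = 3), and a change in the arm ratio of miR-193b was not detectable at this depth. Without EV_stiff replicate 1 the difference was 1.62, a value set by a 3p arm at 0 reads in both remaining EV_stiff libraries, and without EV_stiff replicate 2 or 3 it was 0.37 or 0.31.

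A single dominant arm was common in these libraries. Among 42 hairpins with both arms listed and at least 100 reads, the major arm held a median of 98.7% of the reads. The 5p arm was the major one in 23 of them and the 3p arm in 19, and miR-193b, with 98.8% over all libraries, had rank 12 of the 42 by the share of its 5p arm. Rows named as 3p arms held between 34.7% and 37.9% of all miRNA reads of a library. For 9 other hairpins with a mean of at least 10 reads for both arms, the ratio could be compared with less counting error. The largest changes in the log2 ratio of 5p to 3p were -1.68 for miR-125a, -1.28 for miR-30a and 0.88 for miR-423. In these 3 of the 9 hairpins the groups did not overlap, and in all the others they did. The hairpin of miR-193b was not among the 9, because its 3p arm was too low.

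The miR-365 hairpins, which lie next to those of miR-193, were close to the limit of detection. The shared row of miR-365a-3p and miR-365b-3p had 0, 0 and 2 reads in EV_soft and 1, 0 and 0 reads in EV_stiff. These reads cannot be assigned to chromosome 16 or chromosome 17, since the sequences are the same. The counts of miR-365a-5p were 2, 3 and 1 in EV_soft and 0, 9 and 0 in EV_stiff, so that EV_stiff replicate 2 held all of the EV_stiff reads. The counts of miR-365b-5p were 0, 2 and 0 in EV_soft and 0, 0 and 3 in EV_stiff. Taken over all libraries, 20 of 23 miR-365 reads were named as 5p arms (87.0%, exact 95% interval 66.4 to 97.2). The interval holds counting error only, without the spread between libraries, and 9 of the 20 reads came from EV_stiff replicate 2. No miR-365 row passed the filter on low counts, and with both miR-365a-3p and miR-193b-3p at or under 3 reads in every library no ratio of one to the other was taken. Of the neighbour MIR4725, the 3p arm had 2 reads in EV_soft replicate 3 and none elsewhere, and the 5p arm had no row.

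Between EV_soft and EV_stiff, the paralogous 5p arms moved apart. The reads of miR-193b-5p numbered 47, 33 and 57 in the EV_soft libraries and 56, 63 and 69 in the EV_stiff libraries. The EV_stiff libraries had more of its reads although they were shallower, except that EV_stiff replicate 1 lay 1 read below EV_soft replicate 3. After normalization its level was 1018, 802 and 839 CPM in EV_soft and 1839, 2232 and 2452 CPM in EV_stiff. The groups did not overlap, and the lowest EV_stiff library lay well above the highest EV_soft library. The mean rose from 886 ± 116 CPM (SD, n = 3) to 2175 ± 311 CPM (SD, n = 3), or by 1.29 ± 0.23 (log2 fold change ± standard error).

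The reads of miR-193a-5p numbered 86, 64 and 113 in the EV_soft libraries and 50, 38 and 33 in the EV_stiff libraries. Every EV_stiff library had fewer of its reads than every EV_soft library, which is also the order of the library totals. After normalization its level was 1863, 1556 and 1663 CPM in EV_soft and 1642, 1347 and 1173 CPM in EV_stiff. The normalized groups overlapped, since EV_stiff replicate 1 lay above EV_soft replicate 2. The means were 1694 ± 156 CPM (SD, n = 3) and 1387 ± 237 CPM (SD, n = 3), and the log2 fold change of -0.29 ± 0.22 (standard error) did not pass the test (edgeR quasi-likelihood, p adjusted over all 105 miRNAs tested = 0.362).

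Of the 5 members, 2 passed the filter on low counts and 1, miR-193b-5p, passed both thresholds (absolute log2 fold change above 0.58 and adjusted p of at most 0.05). Of all 105 miRNAs tested, 19 passed (18.1%), of which 11 were higher (10.5%) and 8 lower (7.62%) in EV_stiff. The groups did not overlap in CPM for 50 miRNAs (47.6%), with miR-193b-5p among them and miR-193a-5p not. Because the family was selected on miR-193b-5p, the values of this arm are a description and carry no test. Its log2 fold change was the highest of the 105, and 2.86% of the miRNAs had a larger absolute change. By mean CPM it moved from rank 73 in EV_soft to rank 44 in EV_stiff, while miR-193a-5p moved from rank 49 to rank 53.

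**Figure D2:**
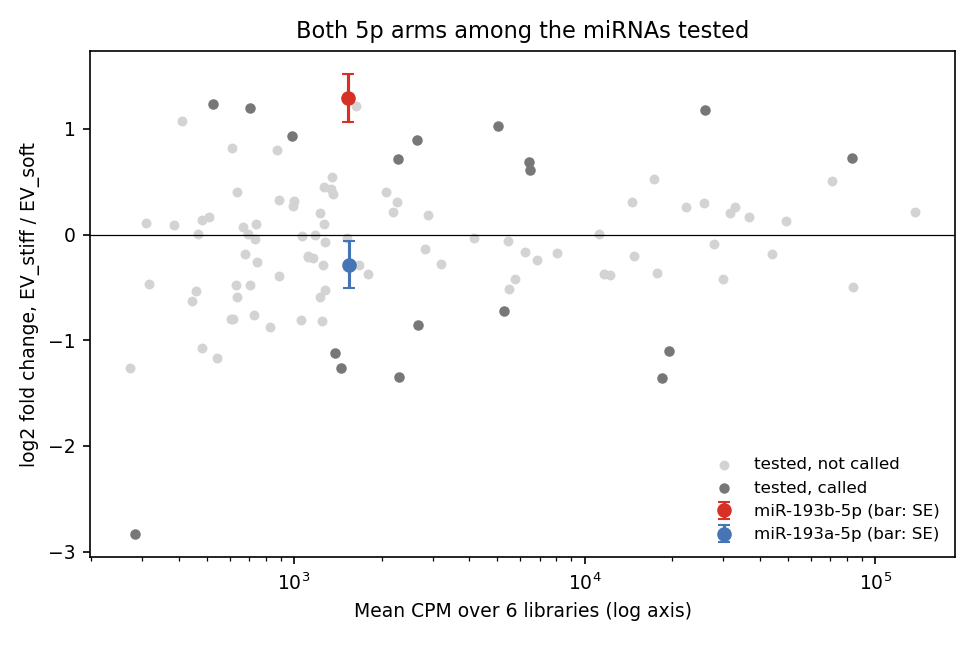
Log2 fold change of EV_stiff over EV_soft (vertical axis) against mean CPM over 6 libraries (horizontal log axis) for the 105 miRNAs tested, with the 19 called in dark grey and standard errors drawn for both 5p arms. The arms have nearly the same mean level, and miR-193b-5p (1.29) lies at the top while miR-193a-5p (-0.29) lies just below 0.

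The order of the pair by reads differed between the groups. Both mature miRNAs are 22 bases long but differ in sequence, so their reads need not show their relative amounts. What can be compared is the ratio of reads between EV_soft and EV_stiff. The ratio of miR-193b-5p to miR-193a-5p reads was 0.547, 0.516 and 0.504 in EV_soft and 1.12, 1.66 and 2.09 in EV_stiff. In each EV_soft library miR-193a-5p had more reads, and in each EV_stiff library miR-193b-5p had more. On the log2 scale, with 0.5 added to each count, the mean was -0.93 ± 0.06 (SD, n = 3) in EV_soft and 0.65 ± 0.45 (SD, n = 3) in EV_stiff, a difference of 1.58. In the pooled reads miR-193b-5p made up 34.2% of both 5p arms in EV_soft (exact 95% interval 29.6 to 39.1) and 60.8% in EV_stiff (interval 55.2 to 66.3). These intervals hold counting error only, without the spread between libraries, and are no test of the groups. By library the share was between 33.5% and 35.3% in EV_soft and between 52.8% and 67.6% in EV_stiff. A ratio within a library needs no scaling between libraries, and it shows only that the arms changed unequally. The ratio contains miR-193b-5p, whose change was known, and was therefore not tested.

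**Figure D3:**
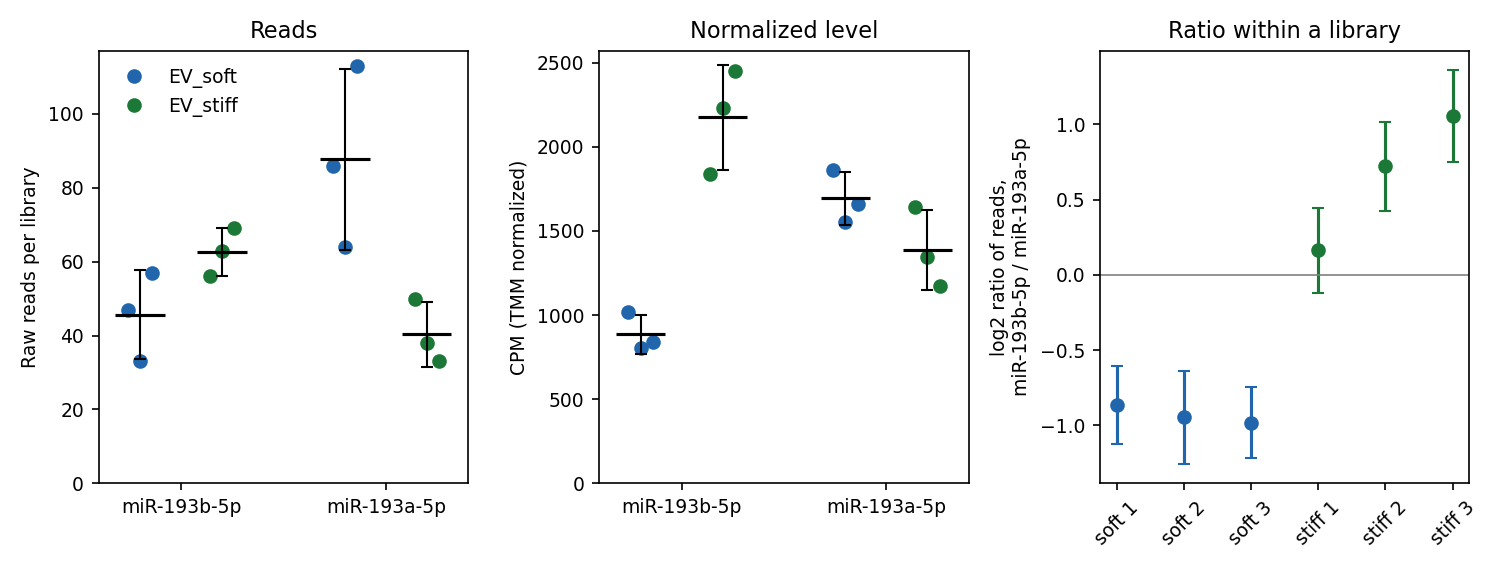
Raw reads (left), CPM (middle) and log2 ratio of miR-193b-5p to miR-193a-5p reads (right) in each library, with black lines for means and SD (n = 3) in the first panels and counting standard errors in the third. The log2 ratio lies between -0.98 and -0.86 in EV_soft and between 0.16 and 1.05 in EV_stiff.

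The EV_soft libraries were closely alike in this ratio, and the EV_stiff libraries were less so. The counting standard error of the log2 ratio was between 0.23 and 0.31 in each library, larger than the SD in EV_soft. EV_stiff replicate 1 was the nearest to EV_soft, and without it the difference was 1.82. For miR-193b-5p alone, the replicates varied by 13.0% of the mean CPM in EV_soft and 14.3% in EV_stiff, where counting error alone gives 14.8% and 12.6%. For miR-193a-5p these values were 9.21% and 17.1%, beside 10.7% and 15.7% from counting. The spread between replicates of both arms was thus close to that of counting.

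The size of each arm's own change, and which arm passed the thresholds, rested on the scaling, since the library totals differed between the groups. When all libraries were set to one common size, so that raw reads were compared as they are, the median log2 fold change of all tested miRNAs moved from -0.04 to -0.89. There miR-193b-5p changed by 0.46 (standard error 0.37) and no longer passed the thresholds, and miR-193a-5p fell by 1.12 on the log2 scale (standard error 0.36, adjusted p = 0.0068) and did. Set against the median of all miRNAs, miR-193b-5p lay above it and miR-193a-5p below it in both scalings. A change of scaling shifts all miRNAs by nearly the same amount, so this position could hardly differ and is no separate support. In the 14 remaining alternatives the log2 fold change of miR-193b-5p was between 1.21 and 1.39, and that of miR-193a-5p between -0.44 and -0.17.

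**Figure D4:**
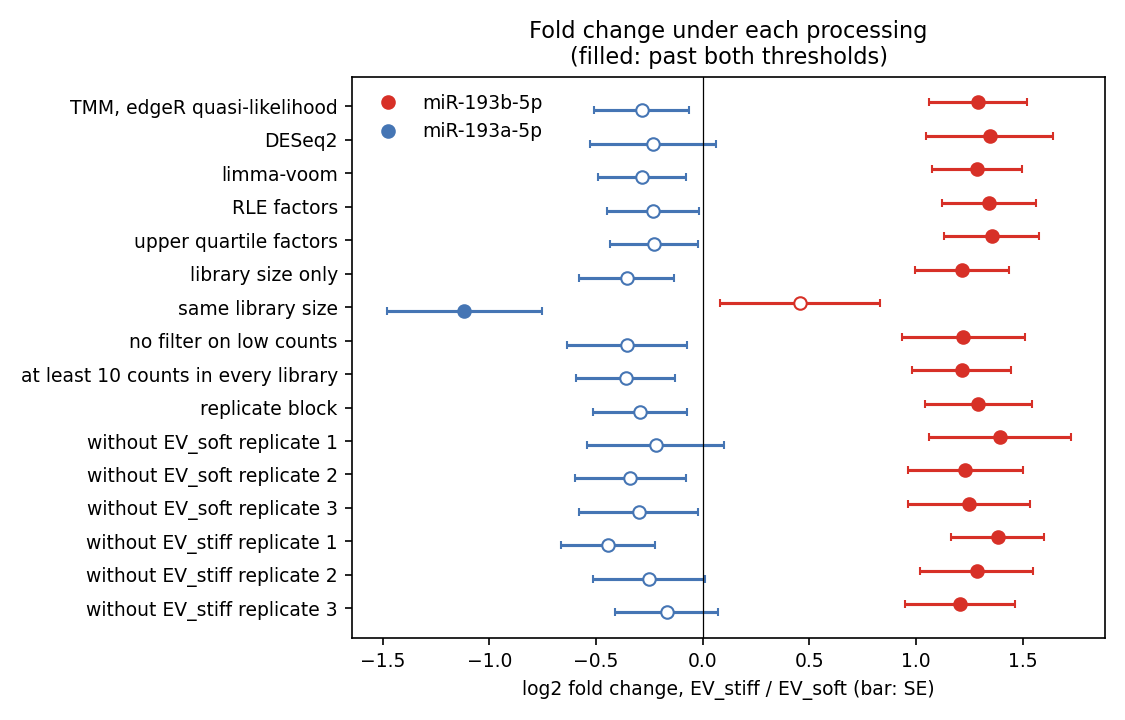
Log2 fold change of EV_stiff over EV_soft with its standard error (horizontal axis) for both 5p arms under each processing, with filled points for values past both thresholds. The arms stay apart in every row, and with one common library size both shift to lower values, to 0.46 for miR-193b-5p and -1.12 for miR-193a-5p.

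The miRNAs whose profile over the 6 libraries was most like that of miR-193b-5p were miR-423-5p, miR-320c and miR-320d, with root mean square differences of 0.21, 0.22 and 0.22 in centred log2 CPM. The median over all other tested miRNAs was 0.74, and miR-193a-5p lay at 0.81. The log2 fold changes of miR-423-5p, miR-320c and miR-320d were 1.18, 0.90 and 0.93. All passed both thresholds, where 10.5% of all 105 miRNAs tested were called higher. Levels of miR-423-5p were 17460, 12857 and 17234 CPM in EV_soft and 37961, 29872 and 40091 CPM in EV_stiff. Those most like miR-193a-5p were miR-7-5p (0.08), miR-222-3p (0.10) and miR-27b-3p (0.11), beside a median of 0.42. Their log2 fold changes were -0.29, -0.37 and -0.37, of a size with that of miR-193a-5p, and none passed both thresholds. For both 5p arms the most alike miRNAs were chosen over these same 6 libraries. Similar fold changes therefore follow from the choice and are no separate result.

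In base composition the counted arms resembled each other. Guanine made up 11 of 22 bases in miR-193b-5p (50%) and 10 of 22 in miR-193a-5p (45.5%), and 4 of 22 in each miR-193 3p arm. The median over the 98 tested miRNAs with a RefSeq match was 27.3%, and none of the others reached 50%. Of the 6 with at least 45.5% guanine, which include both 5p arms, 2 were called higher in EV_stiff, one of them miR-193b-5p itself, and of the remaining 92 miRNAs 8 were. That cut is the share of miR-193a-5p, and the counts depend on it. Next below it lay miR-320c (45%), miR-423-5p (43.5%) and miR-320d (42.1%), all called higher in EV_stiff. At 40.9% some, such as miR-320b, were called higher and others, such as miR-210-3p, were not. Whether guanine share bears on the change was not tested. Across these 98 miRNAs, which share libraries and are not independent, Spearman's rho between the guanine share and the log2 fold change was 0.11 and Pearson's r was 0.21. For the share of guanine and cytosine together Spearman's rho was 0.28.

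In the list of blood and serum markers, the liver and serum miRNA miR-122-5p was called higher in EV_stiff, as miR-193b-5p was. Of all 105 miRNAs tested, 10.5% were called higher. Of the 8 members of the list, 6 had a row, 2 were tested, and 1 was called higher. Their summed level was between 3179 and 5809 CPM in EV_soft and between 6732 and 9426 CPM in EV_stiff, most of it from miR-122-5p, with between 2723 and 4278 CPM in EV_soft and between 6371 and 7406 CPM in EV_stiff. The log2 fold change of miR-122-5p was 1.03 ± 0.18 (standard error). The other tested member, miR-486-5p, a miRNA of red cells, had between 8 and 55 reads and between 263 and 1665 CPM, and its log2 fold change was 0.10 ± 0.68 (standard error). The red cell miRNA miR-451a had at most 8 reads in any library, and miR-142-3p, miR-142-5p and miR-223-3p of white cells had at most 2. The part of serum or blood RNA in the change of miR-193b-5p was not tested. Epithelial markers summed to between 61103 and 70881 CPM in EV_soft and between 52968 and 54556 CPM in EV_stiff. Of 6 tested members, 3 were called lower and none higher, where 7.62% of all 105 miRNAs tested were called lower. Those 3 were miR-200a-3p, miR-200b-3p and miR-200c-3p, with log2 fold changes of -1.12, -0.73 and -1.10. In the same family miR-429 changed by -0.76 and was not called. The other tested markers, miR-205-5p and miR-203a-3p, went the other way, by 0.20 and 1.21, and were not called. Stromal and endothelial markers summed to between 72.9 and 195 CPM in EV_soft and between 197 and 249 CPM in EV_stiff. None of them was tested, and none had more than 10 reads in a library. Those of muscle summed to between 147 and 996 CPM in EV_soft and between 461 and 533 CPM in EV_stiff.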

How the data were processed

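Small RNA of EVs was sequenced from 3 EV_soft and 3 EV_stiff samples. The authors checked read quality with exceRpt, counted reads over RefSeq features and deposited the raw counts of each miRNA. The labels name hg38, and the aligner is not given in the sources used here. Groups and replicate numbers came from the sample titles. The counts were fitted with edgeR 4.0.16 in R 4.3.3 (filterByExpr, which kept 105 miRNAs, TMM, glmQLFit, glmQLFTest, Benjamini-Hochberg adjustment over all 105). The standard error is the absolute log2 fold change divided by the square root of F. DESeq2 1.42.0 and limma 3.58.1 were alternatives. No pair of libraries agreed within sampling noise (chi-square of at least 3.40 per degree of freedom). Ratios used counts plus 0.5, and intervals are exact 95% binomial ones for counting error. Without molecular identifiers, reads are not independent molecules. Likeness used log2 CPM with a prior count of 2. The procedure was tested on simulated data.

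The members and lists were chosen with earlier results of these data known. Named miRNAs are the members, the other products of their hairpins and of MIR4725, the 3 most alike in profile to each tested member, the 3 hairpins with the largest change of the arm ratio, and markers. The comparison of both 5p arms was added after the counts were seen. Planned ratios of miR-193a arms and of miR-365a-3p to miR-193b-3p were not computed, for lack of a row and of reads.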

Additional observations from a re-analysis of the deposited data

How the results depend on the processing

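Of 15 alternatives for the fit, 14 left miR-193b-5p past both thresholds and miR-193a-5p short of them. The exception was the same library size for every library, with log2 fold changes of 0.46 and -1.12 and 57 miRNAs called, 0 higher and 57 lower, where TMM gave 11 and 8. With edgeR's quasi-likelihood test in that setting the called member was miR-193a-5p in place of miR-193b-5p. The scaling is what differs there, and the library totals differ between the groups. With library size only, 8 miRNAs were higher and 11 lower, and over the other alternatives between 13 and 22 were called. Leaving out each library in turn gave between 1.21 and 1.39 for miR-193b-5p, between -0.44 and -0.17 for miR-193a-5p, between 1.37 and 1.82 for the change in their log2 ratio, and between 0.31 and 1.62 for the change in the arm ratio of miR-193b. With 1 or 2 added to the counts the last was 0.62 or 0.52.

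No pairing of the libraries by the replicate numbers of the labels was visible, though so few libraries cannot settle whether there was one. Correlations of the deviations from the group means were -0.13, 0.13 and -0.03 for the same numbers, and 1 of 3 libraries correlated best with its own number. With a replicate block, 16 miRNAs were called in place of 19, and the log2 fold changes were 1.29 for miR-193b-5p and -0.30 for miR-193a-5p. The mean of the ratio differences within same-numbered pairs equals the unpaired 1.58 and 0.76. Depth limits the 3p arms and miR-365, whose rows held at most 3 reads in a library apart from miR-365a-5p.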
